A study of Mus musculus with 25 samples.

Results

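The genes described here are 37 genes of the endoplasmic reticulum (ER), the compartment in which secreted and membrane proteins are made and folded. They were taken as a list of ER chaperones, translocon subunits and genes of the unfolded protein response, chosen with earlier results of these data known. Shares of this list set against all genes are therefore a description and no independent test. All 37 were found among the 34866 genes of the deposited table. Their levels were measured by RNA-seq in 25 libraries, 5 in each of 5 groups, made from mammary organoids (pieces of gland enriched in epithelium by digestion with enzymes). The groups were multiparous mice given cabergoline (labelled 0.2 mg per kg) at 60 days after weaning, untreated multiparous mice at 60 days, cabergoline-treated and untreated multiparous mice at 1 day after weaning, and untreated nulliparous mice matched in age to the 60-day mice. Cabergoline acts on dopamine receptors of the pituitary and so shuts off prolactin, the hormone that keeps lactation going, and was given once, at the end of the second lactation. The dose in the methods of the study differs from the labelled one. All groups, the nulliparous one included, carried the same Brca1 and P53 deficiency. The deletions are made by a Cre recombinase acting in K14-positive cells, so only some cells of the gland carry them. The 1-day and 60-day libraries came from different mice, so the set of mice and the time after weaning cannot be told apart.

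A protein destined for milk enters the ER through the Sec61 channel, helped by the translocon-associated proteins Ssr1 to Ssr4, and is folded there by chaperones and protein disulfide isomerases. Proteins that fail to fold are pulled back into the cytosol and degraded (ER-associated degradation). When unfolded proteins build up, the sensors IRE1 (Ern1), PERK (Eif2ak3) and ATF6 (Atf6) start the unfolded protein response. IRE1 splices the mRNA of Xbp1, PERK raises the translation of ATF4, and ATF6 is cut to release a transcription factor. The lactating gland is among the tissues with the heaviest load of secreted protein, and in mice Xbp1 is needed for the ER of the milk-secreting epithelium. After weaning the secretory cells die or dedifferentiate, a process called involution. Gene-level values do not separate spliced from unspliced Xbp1 mRNA.

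Several features of the libraries bear on every value. The table holds TPM, a transcript abundance that sums to the same total in each library and keeps no read counts, so the depth is unknown. One processed pseudogene, Gm12895, took 28.0% to 56.8% of all TPM in the 10 libraries of day 1 and 0% to 10.46% in the others, and milk transcripts took up to 32.4%. Each library was therefore divided by a median-of-ratios factor, which ran from 0.264 to 0.937 in 1-day libraries and from 1.12 to 2.00 in the others, and the quotient is called scaled TPM. Epithelial markers were sparse in the 60-day libraries despite their label as organoids. The summed level of 10 markers was 13.4 to 203 scaled TPM in cabergoline-treated mice at 60 days and 11.8 to 46.2 in untreated mice at 60 days, apart from untreated replicate 2 with 2125. It was 539 to 1837 in cabergoline-treated mice at 1 day, 13.2 to 2878 in untreated mice at 1 day and 93.7 to 1904 in nulliparous mice. Among untreated mice at 1 day, milk transcripts made up 6.77% of TPM in replicate 2 and 0.216% in replicate 3, against 23.9% to 32.4% in the other 3. Skeletal muscle markers took 2.79% of TPM in cabergoline-treated replicate 3 at 60 days. They took 1.05% and 3.77% in untreated replicates 3 and 4 at 60 days, and at most 0.411% in the other 60-day libraries. In such mixed tissue, fewer cells of a type and less RNA per cell cannot be told apart.

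The promoters were read first, because factors of the unfolded protein response act through short promoter elements. RefSeq promoters (GRCm38.p6, 250 bases before to 50 after the transcript start) were found for 31 of the 37 genes. The ER stress response element (ERSE, read as CCAAT, then 9 bases of any kind, then CCACG, on either strand), bound by ATF6 and XBP1 together with NF-Y, was present in 9 of these 31 genes and in 39 of 32851 promoters in all (0.119%). The sites found are shown on the strand that carries the motif, with the motif and its 9 spacer bases in capitals.
Hspa5 (chr2:34772020-34772048, 65 bases before the start): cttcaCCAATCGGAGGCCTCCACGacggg
Calr (chr8:84847070-84847098): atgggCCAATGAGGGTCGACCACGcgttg
Hsp90b1, distal (chr10:86705633-86705661): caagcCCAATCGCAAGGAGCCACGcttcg
Hsp90b1, proximal (chr10:86705528-86705556): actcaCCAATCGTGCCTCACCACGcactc
Canx (chr11:50325795-50325823): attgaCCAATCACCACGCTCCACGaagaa
Pdia6 (chr12:17266486-17266514): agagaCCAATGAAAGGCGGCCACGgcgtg
Dnajc3 (chr14:118937822-118937850): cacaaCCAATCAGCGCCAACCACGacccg
Creld2 (chr15:88819515-88819543): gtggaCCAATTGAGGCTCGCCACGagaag
Syvn1 (chr19:6046527-6046555): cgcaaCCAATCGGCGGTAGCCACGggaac
Derl3 (chr10:75893237-75893265): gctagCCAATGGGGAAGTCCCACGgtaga
Both Hsp90b1 sites lie within 1 promoter, on opposite strands.

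A second element, ERSE-II (ATTGG, 1 base of any kind, then CCACG), was found in Herpud1 and Dnajb11 and in 0.0365% of all promoters. The C/EBP-ATF response element read by ATF4 (CARE, TGATGNAA) was found in Herpud1 and Trib3 and in 3.97% of all promoters. The element TGACGTGG, known as UPRE, was in no member's promoter window and in 0.676% of all promoters. The sites are again shown on the motif's strand.
Herpud1, ERSE-II (chr8:94386370-94386394, 52 bases before the start): ggcgctgATTGGGCCACGttggaca
Dnajb11, ERSE-II (chr16:22857845-22857869, 7 bases after the start): ggcggcgATTGGCCCACGcctggct
Herpud1, CARE (chr8:94386309-94386332, 112 bases before the start): gtgcgggcTGATGCAAcccgccgt
Trib3, CARE (chr2:152344031-152344054, 14 bases after the start): cgcccggcTGATGTAAacctgagc
Herpud1 was the only member with 2 of the elements. Its last 150 bases before the transcript start (chr8:94386279-94386428, plus strand) hold both in capitals, the CARE here in reverse complement.
Herpud1 promoter: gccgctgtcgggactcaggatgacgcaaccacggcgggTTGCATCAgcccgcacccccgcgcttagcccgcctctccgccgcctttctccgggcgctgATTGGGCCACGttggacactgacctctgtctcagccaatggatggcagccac
A match to a motif is a description of the letters and not a measurement of binding.

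All 37 genes were expressed in the organoids. At least 1 TPM was reached by 35 of them in all 25 libraries, and the other 2, Creld2 and Sec61g, were listed at 0 in replicate 4 of the cabergoline-treated mice at 60 days. The order of the levels differed between groups. At 1 day Xbp1 had the highest mean of the 37, with 396 ± 129 scaled TPM in cabergoline-treated mice and 395 ± 282 in untreated mice (SD, n = 5 each). It was followed by the chaperone genes Hspa5 (329 ± 76.9 with cabergoline and 242 ± 105 without) and Calr (253 ± 31.1 and 224 ± 68.1), whose ranges overlapped in both groups. In cabergoline-treated mice at 60 days the leading genes were Calr (121 ± 33.3), Hsp90b1 (111 ± 39.9), Edem1 (107 ± 25.6) and Hspa5 (104 ± 16.8), which overlapped one another, and Xbp1 was ninth with 63.0 ± 20.1. In untreated mice at 60 days the mean of Xbp1 was 172 ± 242, carried by replicate 2. Nulliparous mice were led by Hspa5 (208 ± 83.3), Hsp90b1 (204 ± 53.2) and Calr (184 ± 67.8), also overlapping. Derl3 and Trib3 were at the low end in most groups, with group means of Derl3 between 3.31 and 7.73 scaled TPM.

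**Figure D1:**
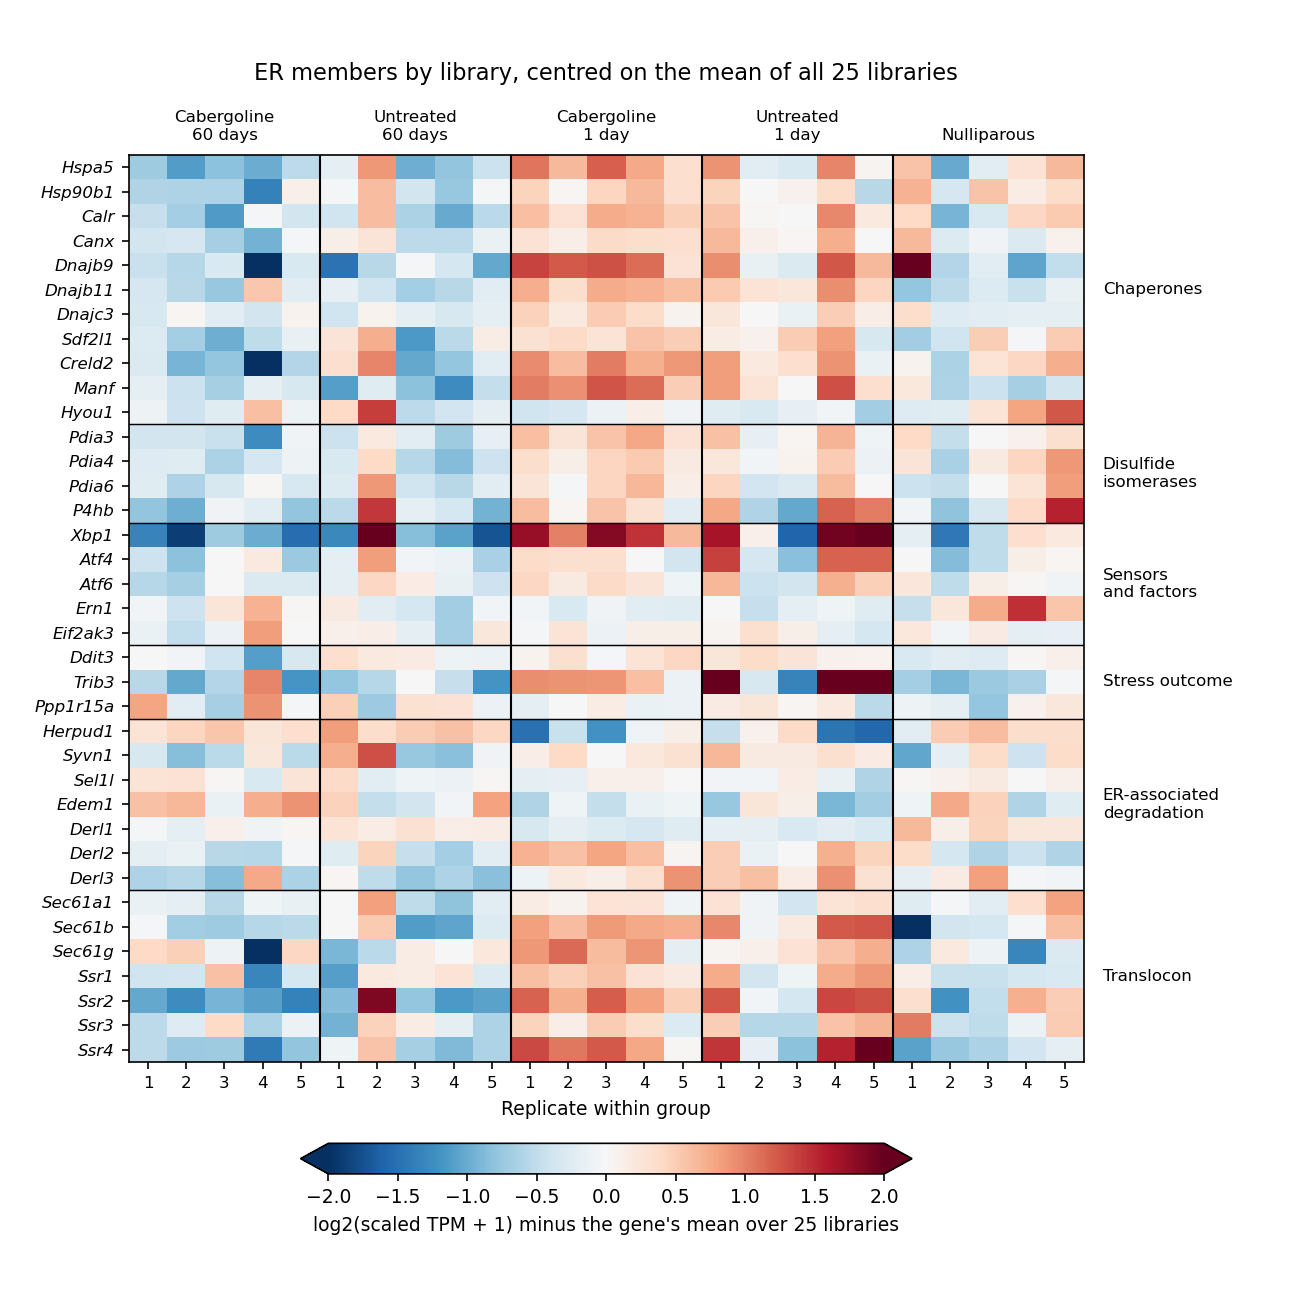
Heatmap of the 37 genes (rows, by role) in 25 libraries (columns, replicates 1 to 5 of each group), as log2(scaled TPM + 1) minus the mean of the gene over all libraries, with colours capped at 2 in each direction. Between 5 and 12 of the 37 genes were above their mean in each cabergoline-treated library at 60 days, against 24 to 31 in cabergoline-treated libraries at 1 day, and untreated replicate 2 at 60 days stood apart from its group with 27.

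The widest difference between groups was that between 60 days and 1 day after weaning in cabergoline-treated mice. Of the 37 genes, 23 passed the test: 21 were lower and 2 were higher at 60 days (limma with Benjamini-Hochberg adjustment over 16457 genes, adjusted p of at most 0.05). Over all genes tested 21.9% passed, 11.7% lower and 10.2% higher. The genes that fell were 10 of 11 chaperones, all 4 disulfide isomerases, 2 of 5 sensors and factors (Xbp1 and Atf6), 2 of 7 genes of ER-associated degradation (Derl2 and Syvn1) and 3 of 7 translocon genes (Ssr2, Ssr4 and Sec61b). The 2 that rose, Edem1 and Herpud1, both act in ER-associated degradation. On TPM as deposited, without scaling, 15 of the 21 falls had the opposite sign. The median log2 fold change was -0.77 over the 37 genes, against 0.11 over all genes tested.

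Xbp1, which encodes the transcription factor downstream of IRE1, fell most. It had 58.6, 39.7, 91.1, 74.4 and 51.4 scaled TPM in cabergoline-treated mice at 60 days, against 502, 300, 537, 407 and 235 at 1 day. No library of one group reached the other, and the log2 fold change was -2.62 (standard error 0.29, adjusted p = 0.000239).

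Ssr2, the translocon-associated beta subunit, had the smallest p. It had 19.8, 16.7, 21.3, 19.0 and 15.6 scaled TPM at 60 days with cabergoline, against 95.4, 68.5, 96.9, 72.9 and 58.0 at 1 day. The 60-day libraries lay within a narrow band, and the log2 fold change was -2.01 (standard error 0.17, adjusted p = 6.17e-05). Ssr4, the delta subunit, had 50.4, 43.4, 43.8, 26.5 and 41.7 scaled TPM at 60 days, against 183, 152, 171, 125 and 73.7 at 1 day (log2 fold change -1.71, standard error 0.26, adjusted p = 0.0018). The groups did not overlap, with replicate 5 the lowest at 1 day. Sec61b, the beta subunit of the channel, had 49.2, 30.5, 30.2, 33.4 and 34.2 scaled TPM at 60 days, against 88.9, 77.2, 90.9, 85.8 and 83.3 at 1 day. It was thus lower in every library (log2 fold change -1.26, standard error 0.15, adjusted p = 0.000453). The channel subunit Sec61a1 was also lower without overlap, but its log2 fold change of -0.36 had an adjusted p of 0.0803. Ssr1 (-0.80, adjusted p = 0.074), Ssr3 (-0.46, adjusted p = 0.158) and Sec61g (-1.04, adjusted p = 0.254) did not pass.

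Among the chaperones, Hspa5 encodes BiP, the Hsp70 of the ER lumen. It had 112, 84.8, 104, 91.9 and 127 scaled TPM in cabergoline-treated mice at 60 days, against 387, 290, 425, 313 and 232 at 1 day. The highest library at 60 days was below the lowest at 1 day, and the log2 fold change was -1.63 (standard error 0.19, adjusted p = 0.000403). Manf, a secreted BiP cofactor, had 56.8, 48.0, 41.0, 57.4 and 51.9 scaled TPM at 60 days, against 133, 123, 157, 143 and 92.4 at 1 day (log2 fold change -1.32, standard error 0.17, adjusted p = 0.000633). Calr encodes calreticulin, a lectin chaperone that holds glycoproteins during folding. It had 123, 106, 76.8, 167 and 132 scaled TPM at 60 days, against 260, 208, 285, 275 and 236 at 1 day (log2 fold change -1.09, standard error 0.21, adjusted p = 0.00523). Sdf2l1, a partner of ER DnaJ proteins, had 12.1, 8.91, 7.02, 10.2 and 13.3 scaled TPM at 60 days, against 18.6, 19.6, 18.2, 22.6 and 21.3 at 1 day (log2 fold change -0.92, standard error 0.19, adjusted p = 0.0073). None of these 4 genes overlapped between the groups.

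The other chaperones that fell were the BiP co-chaperones Dnajb9 (log2 fold change -1.89), Dnajb11 (-0.89) and Dnajc3 (-0.48), the membrane-bound lectin chaperone Canx (-0.77), the Hsp90 of the ER Hsp90b1 (-0.99) and Creld2 (-2.12), a stress-induced ER protein. Creld2 was listed at 0 in replicate 4 at 60 days and without that library its log2 fold change was -1.48 (adjusted p = 0.000387), still past the threshold. Dnajb9 had 1.71 scaled TPM in the same library, against 10.1 to 12.4 in the others at 60 days. With each library left out in turn, its log2 fold change ran from -2.09 to -1.45. Hyou1, the large Hsp70-like partner of BiP, was the chaperone that did not pass, with 30.4 to 62.9 scaled TPM at 60 days and 30.6 to 44.8 at 1 day (log2 fold change 0.11, adjusted p = 0.716). The disulfide isomerases Pdia3 (-1.002), P4hb (-0.83), Pdia4 (-0.63) and Pdia6 (-0.58) form and rearrange disulfide bonds, and all fell.

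Of the sensors, Ern1 (log2 fold change 0.28, adjusted p = 0.336) and Eif2ak3 (-0.06, adjusted p = 0.879) did not pass, while Atf6 fell by 0.59 on the log2 scale (adjusted p = 0.0463). Atf4, the factor translated under PERK, had a log2 fold change of -0.49 (adjusted p = 0.152). Of the genes of the stress outcome, none passed. They are Ddit3, which encodes the pro-apoptotic factor CHOP (-0.59, adjusted p = 0.079), the ATF4 target Trib3 (-1.11, adjusted p = 0.0721) and Ppp1r15a, which encodes the phosphatase subunit GADD34 (0.21, adjusted p = 0.621).

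ER-associated degradation was divided. Edem1, a lectin that hands misfolded glycoproteins over for degradation, had 108, 113, 64.9, 118 and 133 scaled TPM in cabergoline-treated mice at 60 days, against 46.7, 66.5, 50.9, 64.9 and 66.9 at 1 day. Only replicate 3 at 60 days lay within the 1-day range (log2 fold change 0.82, standard error 0.21, adjusted p = 0.0189). Herpud1, a scaffold of the degradation complex, had 48.0, 53.5, 58.2, 47.0 and 49.9 scaled TPM at 60 days, against 13.3, 28.9, 16.4, 37.4 and 42.8 at 1 day (log2 fold change 0.99, standard error 0.30, adjusted p = 0.0389). The 1-day libraries were widely spread but all lower. The channel candidate Derl2 (-0.84, adjusted p = 0.0117) and the ubiquitin ligase Syvn1 (-0.62, adjusted p = 0.0495) fell. Not all calls held when each of the 10 libraries was left out in turn: 14 of the 23 genes were called every time, Edem1 in 8 of the 10 fits, Dnajb11 and Creld2 in 6, P4hb and Pdia6 in 4, Herpud1, Dnajc3 and Atf6 in 3 and Syvn1 in 1. Derl1 (0.24, adjusted p = 0.152), Derl3 (-0.67, adjusted p = 0.161) and Sel1l, the partner of Syvn1 (0.14, adjusted p = 0.536), did not pass.

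**Figure D2:**
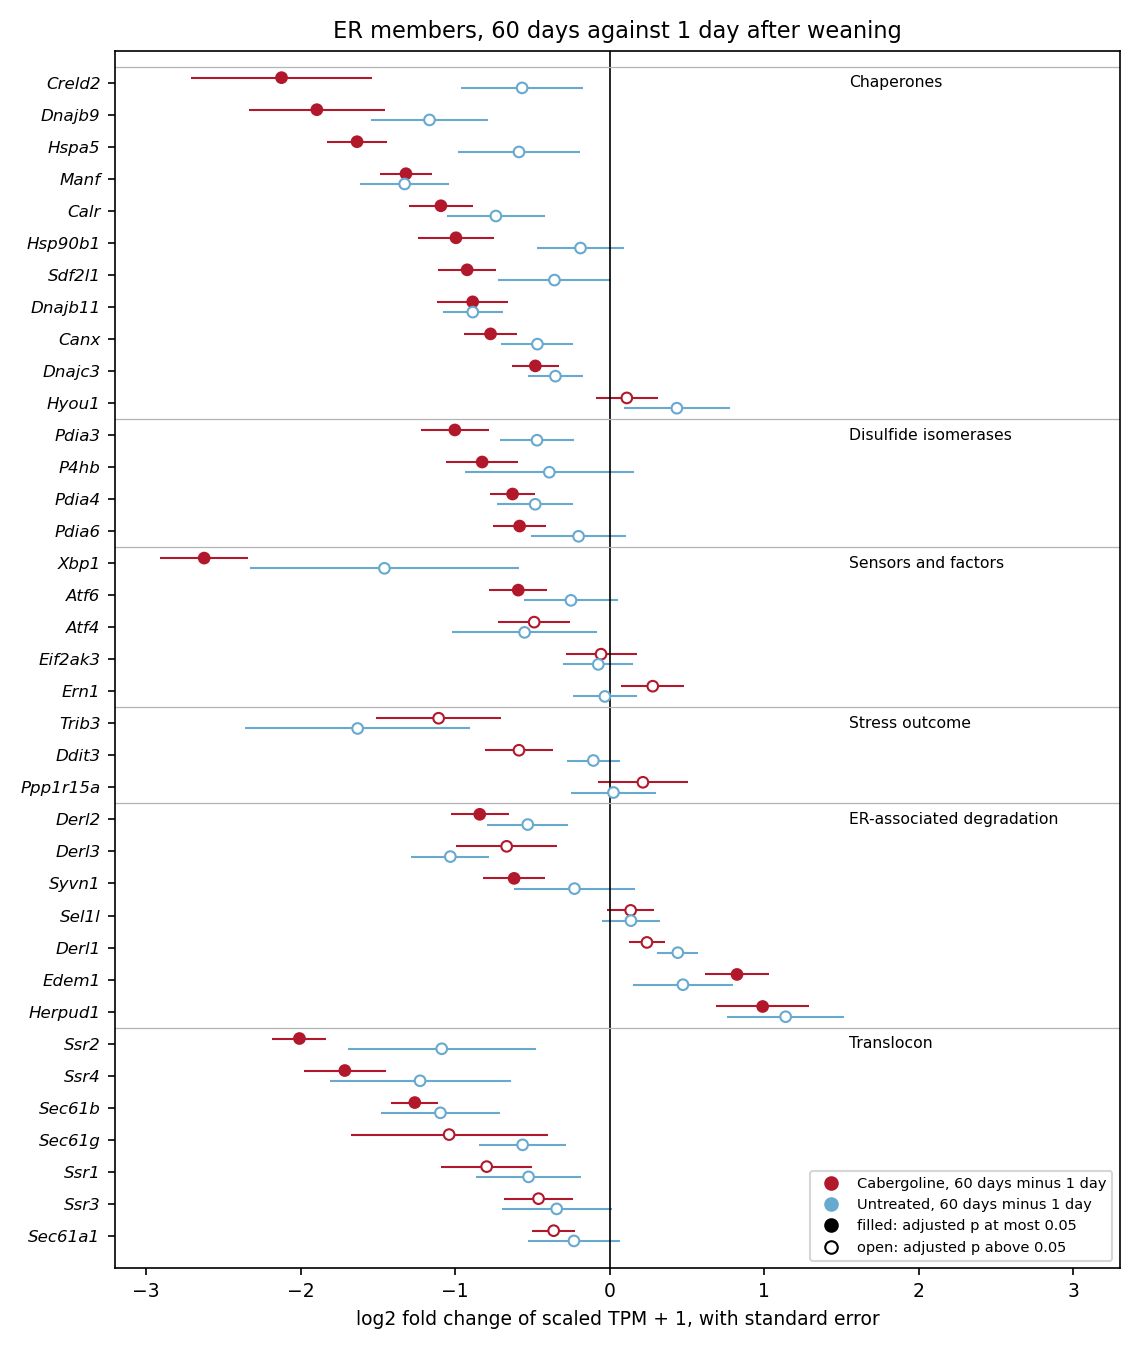
Log2 fold change of scaled TPM + 1 (horizontal axis, with standard error) of the 37 genes at 60 days against 1 day after weaning, in cabergoline-treated mice (red) and in untreated mice (blue), by role. Filled points have an adjusted p of at most 0.05: 23 genes in cabergoline-treated mice and 0 in untreated mice.

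In all, 16 genes were lower and 2 higher at 60 days with no overlap between the groups, against 10.3% and 9.48% of all genes tested. The 2 higher were Herpud1 and Derl1. Derl1 did not pass the test, and its lowest 60-day library (31.98 scaled TPM) was just above its highest 1-day library (31.91). Of the 9 genes with an ERSE, 8 fell (all but Derl3), and of the 22 with a promoter but no ERSE, 10 fell and 2 rose. The median log2 fold change was -0.77 in the first group and -0.81 in the second. Of the ERSE-II genes, Dnajb11 fell and Herpud1 rose.

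Milk and epithelial transcripts moved with these genes. All 8 milk genes were lower at 60 days in cabergoline-treated mice, with a summed level of 335 to 866 scaled TPM, against 173739 to 757911 at 1 day. Of 10 epithelial markers 9 were lower, and Krt5, Krt14 and Trp63 were listed at 0 in at least 1 library at 60 days. Markers of B and plasma cells, which are secretory cells too, summed to 226 to 1129 scaled TPM at 60 days, against 1570 to 2363 at 1 day (3 of 9 tested were lower and 0 higher, with a median log2 fold change of 0.45 over the 9). Markers of skeletal muscle (8 tested) and of T cells (7 tested) had median log2 fold changes of 2.34 and 1.66, with 0 called. The part of these cell types in the result was not tested.

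The direction of 15 of these 23 changes was opposite on TPM as deposited. On TPM as deposited, the 37 genes had a median log2 fold change of 0.74, against 1.42 over all genes. The difference of these medians was -0.68 as deposited and -0.88 after scaling, and since a factor moves all genes of a library alike, the second is no independent check of the first. As deposited, 20 of the 37 genes were called higher and 2 lower, and the share of all genes called is not given here for comparison. Of the 23 calls, 4 were made again in the same direction as deposited: Xbp1 (-1.06) and Ssr2 (-0.47) lower, and Edem1 (2.38) and Herpud1 (2.49) higher. Hspa5 was then at -0.06 (adjusted p = 0.799). Ratios of 2 genes within a library need no scaling. They were chosen after the data were examined, and the genes in them because they had moved in opposite directions. The TPM of Hspa5 over that of Edem1 was 0.75 to 1.61 in cabergoline-treated mice at 60 days and 3.47 to 8.34 at 1 day. For Xbp1 over Edem1 it was 0.351 to 1.4 at 60 days and 3.51 to 10.7 at 1 day, and for Ssr4 over Herpud1 0.565 to 1.05 at 60 days and 1.72 to 13.7 at 1 day. In none of these ratios did the cabergoline-treated groups overlap. In untreated mice each of the same ratios overlapped between the times. Hspa5 over Edem1 was 1.1 to 6.68 at 60 days and 1.88 to 9.86 at 1 day in untreated mice. Xbp1 over Edem1 was 0.355 to 11.9 and 0.639 to 16.6 there, and Ssr4 over Herpud1 0.652 to 2.14 and 0.787 to 31.9. Without replicate 1 or replicate 3 of the cabergoline-treated mice at 1 day, 14 genes were called, all lower.

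**Figure D3:**
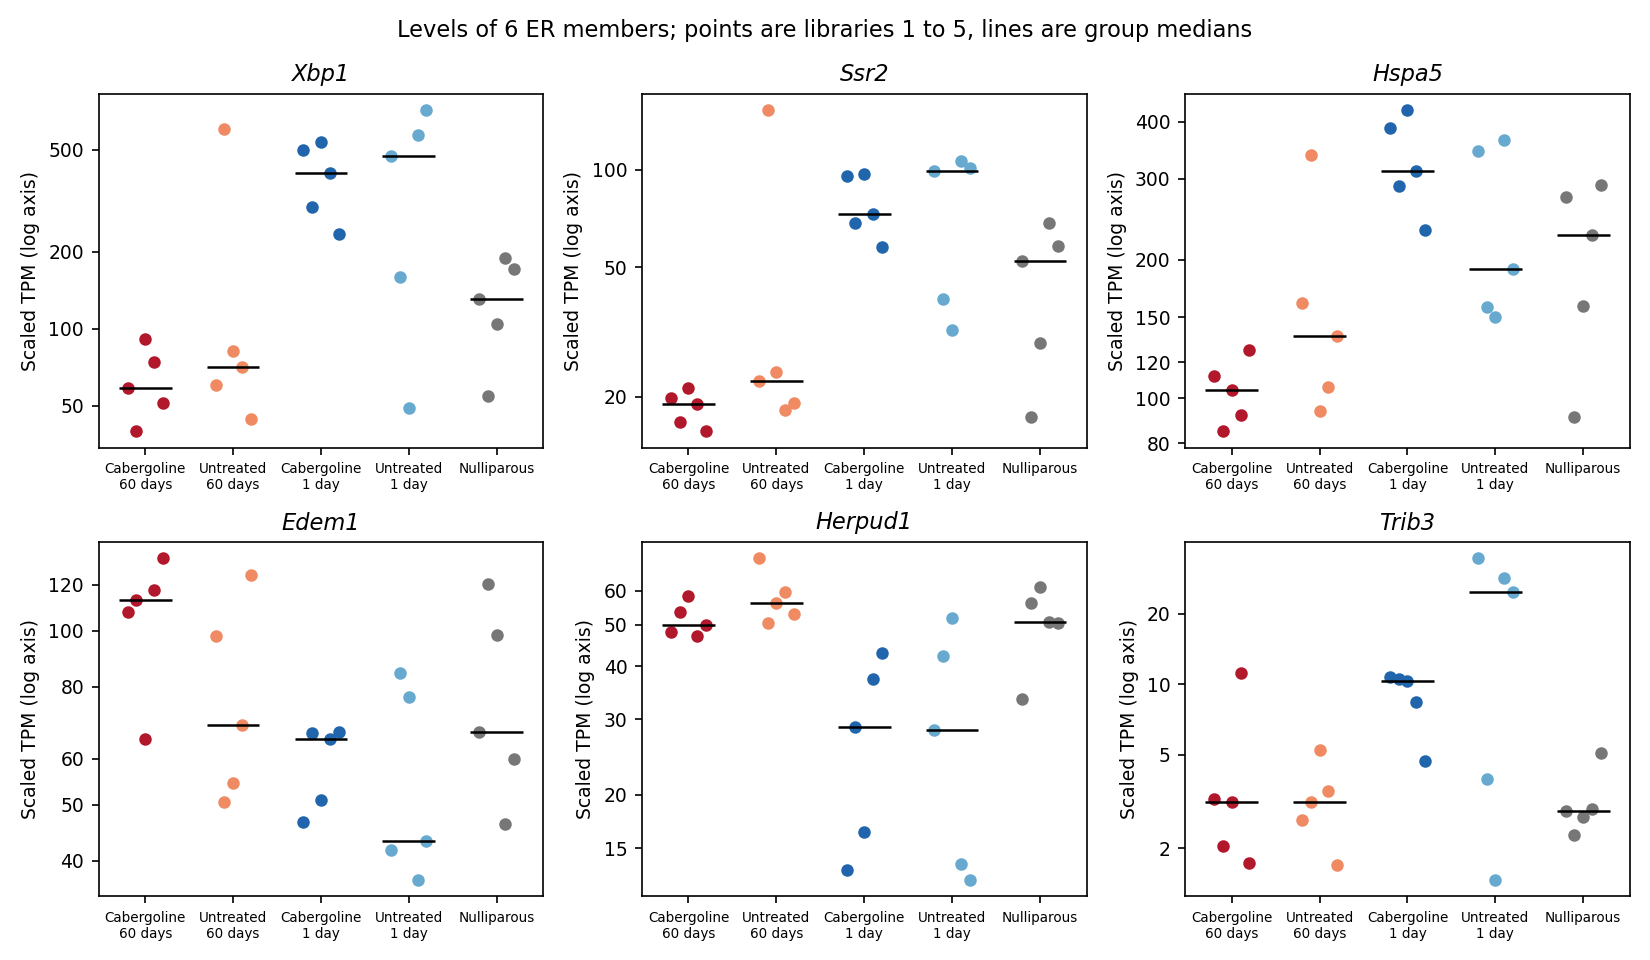
Scaled TPM (vertical log axis) of 6 genes in each of 25 libraries by group, with the group median as a line. Xbp1, Ssr2 and Hspa5 lie lower in cabergoline-treated mice at 60 days than at 1 day without overlap, Herpud1 lies higher, and untreated replicate 2 at 60 days has 604 scaled TPM of Xbp1.

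In untreated mice, 0 of the 37 genes passed the test between 60 days and 1 day, against 1.23% of all genes (limma, 16312 genes). In the same test 9 of the 37 and 3304 of all 16312 genes had an unadjusted p under 0.05. Of the 37 fold changes 31 were negative, with a median of -0.47 (all genes 0.11). The smallest p belonged to Manf, with 29.9, 54.9, 36.6, 26.6 and 46.8 scaled TPM in untreated mice at 60 days, against 117, 79.2, 65.4, 160 and 82.5 at 1 day. Its groups did not overlap (log2 fold change -1.33, standard error 0.29, adjusted p = 0.0578). Dnajb11, which encodes a DnaJ co-chaperone, had 22.8, 19.3, 15.7, 17.2 and 22.1 scaled TPM at 60 days, against 37.7, 31.5, 30.4, 50.2 and 35.1 at 1 day (-0.89, adjusted p = 0.0589). It too was lower in every library. Derl3, an ER-associated degradation protein, had 5.30, 3.29, 2.55, 3.00 and 2.40 scaled TPM at 60 days, against 7.57, 8.29, 5.77, 10.5 and 6.52 at 1 day (-1.03, adjusted p = 0.079). The genes without overlap were these 3, all lower, and Derl1, which was higher (3.45% and 3.26% of all genes). On TPM as deposited Manf (0.54), Dnajb11 (0.93) and Derl3 (0.50) had positive fold changes, and all 37 genes did, with a median of 1.40 (all genes 1.61).

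Single libraries weighed on this comparison. Xbp1 had 60.5, 604, 82.2, 71.0 and 44.3 scaled TPM in untreated mice at 60 days, against 473, 160, 49.0, 572 and 719 at 1 day, so that replicate 2 was high at 60 days and replicate 3 low at 1 day. These are the library richest in milk transcripts at 60 days (5.68% of TPM, against 0.00423% to 0.0986%) and the poorest at 1 day. Ssr2 went the same way, with 22.3, 153, 23.8, 18.2 and 19.1 scaled TPM at 60 days, against 99.3, 40, 32.1, 106 and 101 at 1 day. Without untreated replicate 3 at 1 day, Manf and Dnajb11 were called. Without both libraries, a choice made after the data were examined, 9 genes were called: Xbp1 (-2.72), Ssr2 (-1.91), Ssr4 (-1.88), Manf (-1.60), Sec61b (-1.45), Derl3 (-1.12), Calr (-1.08) and Dnajb11 (-0.95) were lower and Herpud1 (1.43) was higher. With quality weights on the libraries 3 genes were called higher and 25 lower. Neither for these weights nor for the fits without libraries is the share of all genes called given here. Such counts are therefore no result about the ER genes alone.

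**Figure D4:**
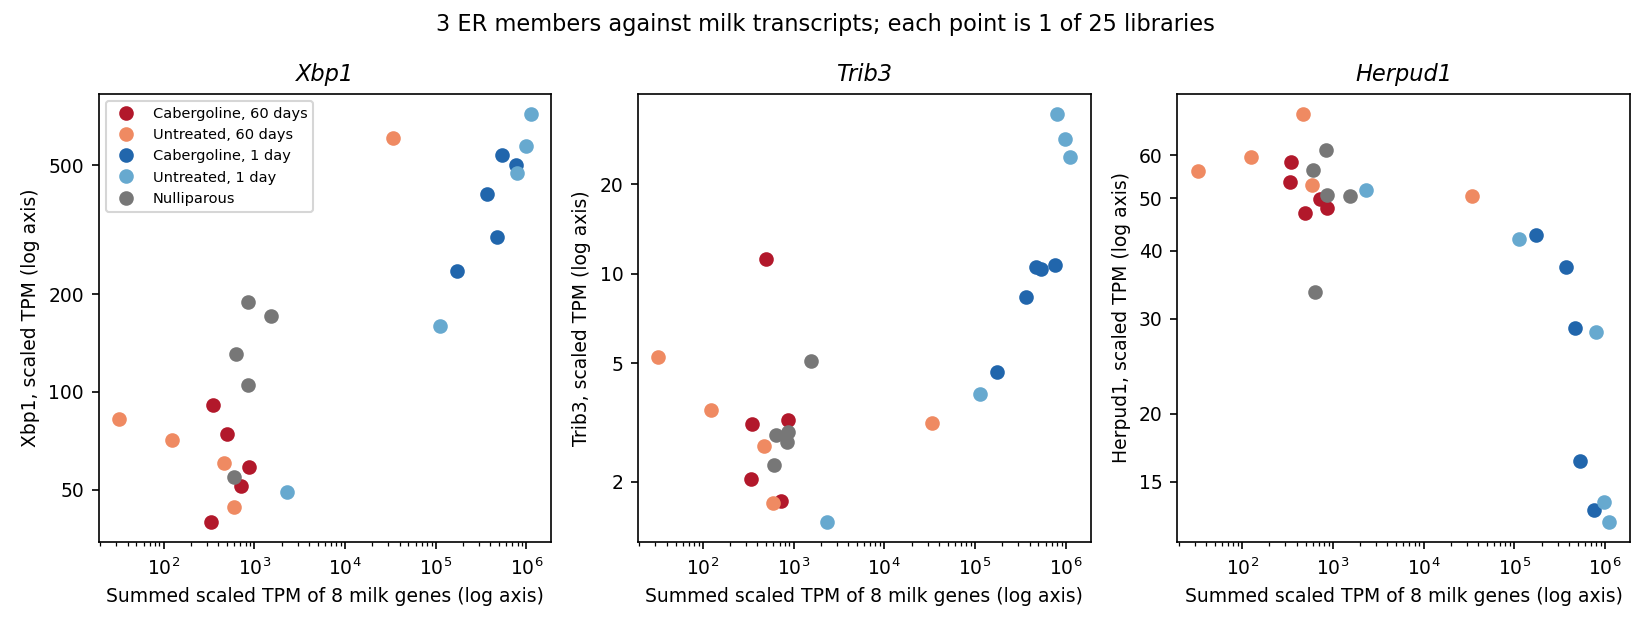
Scaled TPM of Xbp1, Trib3 and Herpud1 (vertical log axis) against the summed scaled TPM of 8 milk genes (horizontal log axis) in 25 libraries, coloured by group. Both axes share the scaling factor of the library. In the 3 untreated 1-day libraries richest in milk transcripts Trib3 has 24.7 to 34.5 scaled TPM and Herpud1 12.6 to 28.4, while untreated replicate 2 at 60 days has 604 of Xbp1.

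Cabergoline changed none of the 37 genes detectably at 1 day after weaning. In the comparison of cabergoline-treated with untreated mice, 0 genes passed (0% of all 14733 genes in either direction), and 0 of the 37 and 287 of all genes had an unadjusted p under 0.05 in limma's test. The fold changes were positive for 27 of the 37 genes, with a median of 0.11 (all genes 0.02), and on TPM as deposited for all 37, with a median of 0.50 (all genes 0.33). With quality weights on the libraries 17 were positive and 20 negative. Creld2 had 27.0, 21.4, 28.6, 22.8 and 25.4 scaled TPM in cabergoline-treated mice, against 25.1, 15.6, 17.5, 26.1 and 12.3 in untreated mice (0.40 on the log2 scale, standard error 0.21). For Hspa5, values were 387, 290, 425, 313 and 232 scaled TPM with cabergoline, against 345, 158, 150, 365 and 192 without (0.52, standard error 0.29). Of the untreated libraries 2 thus lay within the treated range and 3 below it. Dnajb9 had 41.0, 37.5, 38.8, 34.7 and 19.1 scaled TPM with cabergoline, against 30.5, 13.9, 12.5, 38.2 and 24.8 without (0.57, standard error 0.33). The adjusted p was 1.00 for all 3 genes, and none of the 37 was free of overlap, against 0.204% of all genes higher and 0.319% lower without overlap.

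The spread between libraries at 1 day was also compared. The standard deviation of log2(scaled TPM + 1) was larger in cabergoline-treated than in untreated mice for 3 of the 37 genes, and for 18.8% of all 9778 genes at 1 TPM or more in every library. The median over the 37 genes was 0.215 in cabergoline-treated mice and 0.408 in untreated mice (all genes 0.239 and 0.370). Trib3, the most spread of the 37 in untreated mice, had 10.7, 10.5, 10.4, 8.38 and 4.69 scaled TPM in cabergoline-treated mice, against 34.5, 3.94, 1.46, 28.3 and 24.7 in untreated mice. Atf4, its activator, had 84.5, 81.8, 81.8, 64.6 and 50.3 scaled TPM in cabergoline-treated mice and 170, 51.4, 35.8, 148 and 148 in untreated mice. Untreated replicates 2 and 3, the lowest for both genes, are those with least milk transcript. Edem1 ran the other way in untreated mice, with 84.4 and 76.7 scaled TPM in these 2 libraries and 37.1 to 43.3 in the rest, and so did Herpud1, with 42.1 and 51.8 against 12.6 to 28.4. This spread was not tested between the groups.

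At 60 days after weaning, cabergoline-treated and untreated mice did not differ detectably in the 37 genes either. In limma's test 0 genes passed (0% of all 17644), and 0 of the 37 and 213 of all genes had an unadjusted p under 0.05. The median log2 fold change of the 37 was -0.17 (all genes 0.00), with 26 negative. With quality weights on the libraries the median was 0.01 with 18 negative, and without untreated replicate 2 it was -0.06 with 20 negative. Ddit3 had 17.4, 16.8, 13.0, 7.64 and 13.9 scaled TPM in cabergoline-treated mice, against 22.4, 20.3, 19.6, 16.2 and 16 in untreated mice (-0.47 on the log2 scale, standard error 0.25). Its ranges overlapped, and a second locus with the same symbol was listed at 0 in all 10 libraries. Manf had 56.8, 48.0, 41.0, 57.4 and 51.9 scaled TPM with cabergoline, against 29.9, 54.9, 36.6, 26.6 and 46.8 without (0.42, standard error 0.23). Creld2 had 10.9, 6.61, 7.48, 0 and 8.69 scaled TPM with cabergoline, against 17.4, 27.6, 6.19, 7.48 and 11.6 without (-1.15, standard error 0.67). The adjusted p was 1.00 for each. The gene without overlap was Derl1, with 32.0 to 39.2 scaled TPM in cabergoline-treated mice and 40 to 45.4 in untreated mice (0.153% of all genes did not overlap in this direction). Untreated replicate 2 was the highest of its group for Hspa5, P4hb, Calr, Xbp1 and Ssr2.

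Whether the effect of cabergoline differed between the times was tested as an interaction over the 4 multiparous groups. Again 0 genes passed (0% of all 18232), 3 of the 37 and 257 of all genes had an unadjusted p under 0.05, and the median difference of the 37 was -0.30 (all genes 0.00). Those 3 were Hspa5 (-1.05, standard error 0.45), Hsp90b1 (-0.81, standard error 0.38) and Creld2 (-1.56, standard error 0.74), each with an adjusted p of 1.00. A difference between the times in the response to cabergoline was therefore not shown, and the larger number of calls over time in treated than in untreated mice is no test of one. With quality weights on the libraries the median was 0.08, and without untreated replicate 2 at 60 days, untreated replicate 3 at 1 day or cabergoline-treated replicate 4 at 60 days it was -0.10, -0.18 and -0.19.

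Untreated mice at 1 day after weaning were set against nulliparous mice, as the gland nearest to lactation against one that never lactated. Of the 37 genes 1 passed, against 5.71% of all 16869 genes in limma's test (2.61% higher and 3.09% lower). In the same test 11 of the 37 and 4530 of all 16869 genes had an unadjusted p under 0.05. With quality weights on the libraries 21 genes were called higher and 6 lower. The share of all genes called in this and the other alternative fits is not given here. Their counts are therefore no result about the 37 genes alone. Dnajb11 had 37.7, 31.5, 30.4, 50.2 and 35.1 scaled TPM in untreated mice at 1 day, against 14.7, 17.5, 21.3, 18.6 and 23.2 in nulliparous mice. Every 1-day library was higher (log2 fold change 0.91, standard error 0.19, adjusted p = 0.0277), but on TPM as deposited the fold change was -0.998. Derl1, the other gene without overlap, had 29.2 to 32.0 scaled TPM at 1 day and 39.6 to 58.0 in nulliparous mice (-0.57, adjusted p = 0.0529). Such gaps were found in 4.19% of all genes upwards and 6.36% downwards. Larger fold changes came with larger errors, as in Ssr4 with 40.8 to 403 scaled TPM at 1 day and 34.1 to 63.8 in nulliparous mice (1.49, standard error 0.55, adjusted p = 0.117). The median was 0.26 over the 37 genes and -0.16 over all genes, and -1.64 and -1.74 on TPM as deposited, where 32 genes were called lower. The median was 0.14 without untreated replicate 4 and 0.16 without nulliparous replicate 2. Without untreated replicate 3, the library poor in milk transcripts, Dnajb11, Manf (1.06), Ssr4 (1.92), Trib3 (2.23) and Xbp1 (1.81) were called higher. Without untreated replicate 1, 4 or 5 or nulliparous replicate 4, no gene was, and without nulliparous replicate 1, Manf (1.07) was called beside Dnajb11.

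At 60 days, neither multiparous group differed detectably from nulliparous mice, and the 2 comparisons share the nulliparous libraries. For cabergoline-treated mice, 0 genes passed in limma's test (0% of all 18077), 6 of the 37 and 896 of all genes had an unadjusted p under 0.05, and the median was -0.33 (all genes -0.04), or -0.19 without nulliparous replicate 5. Ssr2 had 19.8, 16.7, 21.3, 19.0 and 15.6 scaled TPM in cabergoline-treated mice, against 52.5, 17.3, 29.2, 68.4 and 58.4 in nulliparous mice (log2 fold change -1.10, standard error 0.34). Hsp90b1 had 106, 105, 104, 62.8 and 174 scaled TPM with cabergoline, against 262, 128, 242, 178 and 210 in nulliparous mice (-0.91, standard error 0.29). For Hspa5, values were 112, 84.8, 104, 91.9 and 127 scaled TPM, against 274, 91.1, 159, 227 and 291 in nulliparous mice (-0.89, standard error 0.32). Nulliparous replicate 2 lay within the treated range for all 3 genes, and the adjusted p was 0.889 for each. The gene without overlap was again Derl1, lower with cabergoline (0.393% of all genes).

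For untreated mice at 60 days against nulliparous mice, 0 genes passed (limma, 0% of all 17960), 1 of the 37 and 441 of all genes had an unadjusted p under 0.05, and the median was -0.13 (all genes -0.05). It was -0.38 with quality weights, -0.29 without untreated replicate 2, -0.07 without untreated replicate 4 and -0.08 without nulliparous replicate 5. Derl3 had 5.30, 3.29, 2.55, 3.00 and 2.40 scaled TPM in untreated mice at 60 days, against 4.37, 5.87, 9.80, 4.94 and 4.88 in nulliparous mice (log2 fold change -0.68, standard error 0.29). Ern1 had 21.7, 16.2, 14.6, 11.4 and 18.1 scaled TPM, against 13.6, 22.4, 32.3, 53.9 and 28.5 in nulliparous mice (-0.73, standard error 0.34). Both genes overlapped between the groups. Pdia4 had 32.1, 52.5, 26.2, 21.2 and 29.6 scaled TPM, against 47.5, 25, 45.2, 53.8 and 73.3 in nulliparous mice (-0.57, standard error 0.31), with an adjusted p of 1.00 like the others.

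**Figure D5:**
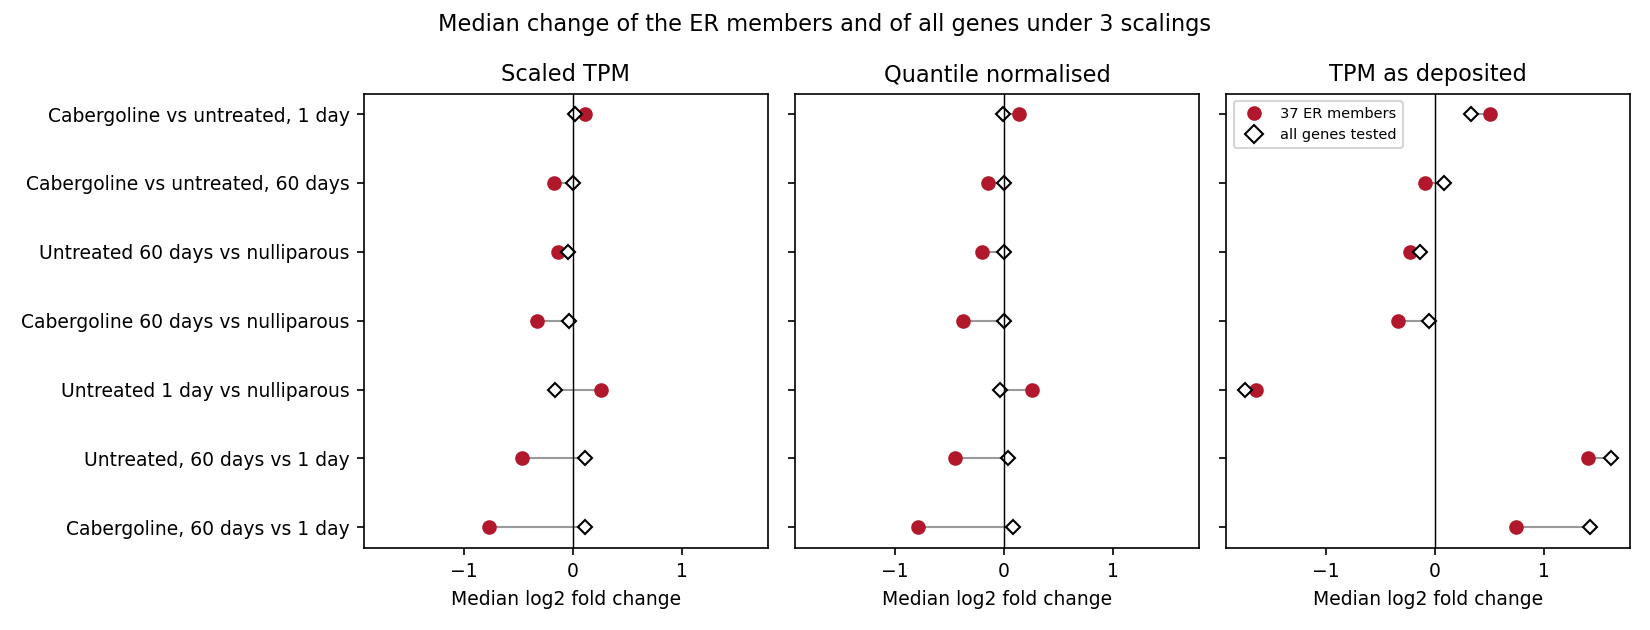
Median log2 fold change (horizontal axis) of the 37 ER genes (red points) and of all genes tested (open diamonds) in 7 comparisons (rows), for scaled TPM, quantile-normalised TPM and TPM as deposited. In cabergoline-treated mice at 60 days against 1 day the 37 genes lie below all genes in the 3 panels (-0.77 against 0.11, -0.79 against 0.08, and 0.74 against 1.42).

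A further 98 genes of the same secretory route, in 6 lists, were tested in each comparison. These lists too were chosen with earlier results of these data known. In cabergoline-treated mice at 60 days against 1 day, 39 fell and 1 rose, against 11.7% and 10.2% of all genes. On TPM as deposited 6 of the 98 were called lower and 65 higher, and 26 of the 40 changes had the opposite sign. Leaving out 1 library gave 30 to 47 calls lower and 0 to 3 higher. The share of all genes called in these alternative fits is not given here. The values below are on scaled TPM. Of 15 genes of the signal recognition particle and signal peptidase 6 fell, among them Spcs1 (log2 fold change -1.18), Srp9 (-1.48) and Sec11c (-1.13), with a list median of -0.51. Of 10 genes of the oligosaccharyltransferase, which attaches N-glycans, 3 fell: Dad1 (-1.06), Stt3b (-0.67) and Ostc (-1.05), with a median of -0.53. Of 22 genes of export to the Golgi 9 fell, among them the transcription factor Creb3l1 (-3.36) and the cargo receptors Tmed2 (-1.69) and Tmed10 (-1.45), with a median of -0.53. Creb3l1 averaged 1.21 ± 0.864 scaled TPM at 60 days and 21.1 ± 7.31 at 1 day (SD, n = 5 each; limma's adjusted p = 0.000194). Of 18 other folding genes 8 fell, among them the peroxiredoxin Prdx4 (-2.43), Cnpy2 (-1.33) and the prolyl isomerase Fkbp11 (-1.38), with a median of -0.52. Of 13 other degradation genes 3 fell: Os9 (-0.80), the AAA ATPase Vcp (-0.69) and Edem3 (-0.93), with a median of -0.25.

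The last list holds 20 targets of the integrated stress response, the programme run by ATF4, and its median was -0.82. In the same comparison 10 of them fell, among them the amino acid transporter subunit Slc3a2 (-2.29), the seryl-tRNA synthetase gene Sars (-1.65) and the transcription factor gene Cebpb (-2.88). Slc3a2 averaged 77.4 ± 11.4 scaled TPM at 60 days and 392 ± 112 at 1 day (SD, n = 5 each; limma's adjusted p = 7.69e-05). The gene that rose was Psat1, an enzyme of serine synthesis (0.82, adjusted p = 0.0303). In untreated mice at 1 day against nulliparous mice 6 of the 98 genes were higher and 0 lower, against 2.61% and 3.09% of all genes: Srp9 (1.40), Creb3l1 (2.30), Fkbp2 (1.40), Os9 (1.00), Sars (1.5) and Cebpg (0.86). These calls were not stable: on TPM as deposited 0 of the 98 were called higher and 82 lower, without untreated replicate 1, 4 or 5 none was called, and without untreated replicate 3 there were 18 higher and 1 lower. Without nulliparous replicate 1, 2, 3, 4 or 5, 1 to 3 were called higher. With quality weights 56 were called higher and 11 lower. For these alternative fits the share of all genes called is not given here. In the other comparisons 0 of the 98 passed. At 1 day, for example, the abundant cargo receptor Tmed2 averaged 239 ± 60.6 scaled TPM in cabergoline-treated mice and 205 ± 109 in untreated mice, and Vcp 181 ± 34.6 and 171 ± 61.8 (SD, n = 5 each). At 60 days Slc3a2 averaged 77.4 ± 11.4 scaled TPM in cabergoline-treated mice and 139 ± 96.5 in untreated mice.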

How the data were processed

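RNA was sequenced after removal of ribosomal RNA, in 25 libraries of mammary organoids. TPM values were made by the authors with Salmon on GRCm38, per the labels, and were used as deposited, 1 column per library. The annotation release, the summing to genes and the strand setting were not given in the sources used. TPM keeps no counts, so the precision set by depth is unknown. The authors' edgeR test needs counts and was replaced by limma 3.58.1 (R 4.3.3, trend) on the log2 of scaled TPM, to which a pseudocount of 1 was added, so that fold changes of low genes are understated. Scaled TPM is TPM over a median-of-ratios factor from 9778 genes with at least 1 TPM in all 25 libraries. A gene was tested where 5 or more libraries of the comparison reached 1 TPM, with Benjamini-Hochberg adjustment over all of them and a threshold of 0.05. Only the groups compared entered a fit. The script was tested on simulated data.

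The members and lists were chosen with earlier results of these data known. Per-library values are given for up to 8 called members with the smallest p, or for 3 where none was called. From each pathway list up to 3 called genes were named by the smallest p, or otherwise up to 2 by level. Values of other genes (Edem1, Herpud1, Trib3, Atf4, Derl1 and the repeats of Xbp1 and Ssr2 among them) were chosen after they had been seen. Libraries of a group were taken as separate mice, as their numbered titles read. Exons of 13 of the 37 genes overlap another gene, 12 of them on the opposite strand, and without a stated strand setting their reads cannot be told apart. Samples with the same replicate number did not deviate together throughout: of 50 correlations, which ran from -0.718 to 0.655, 20 were over 0.1. They came nearest to it between untreated mice at 1 day and nulliparous mice, with 0.044 to 0.639 and 4 over 0.1. The alternatives were TPM as deposited, factors from the compared libraries, quantile normalisation, a pseudocount of 0.1, no filter, quality weights, a replicate block, 1 fit of all 25 libraries, and leaving out each library.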

Additional observations from a re-analysis of the deposited data

Results flagged for a closer look

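Of 185 groups of 5 values (37 genes in 5 groups), 22 held a library far from the other 4 by Dixon's test (11.9%). The test gives about 1 in 20 by chance for independent, normally distributed values. Here the values were not logged and the genes share libraries, so that rate is no reference for the share found. In untreated mice at 60 days these were all replicate 2, with 604 scaled TPM of Xbp1, 337 of Hspa5, 284 of P4hb, 262 of Calr, 153 of Ssr2, 117 of Atf4 and 108 of Pdia6, each the highest of its group. The same library had 2125 scaled TPM of summed epithelial markers and 33907 of milk transcripts, and their part in these values was not tested.

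In cabergoline-treated mice at 60 days, replicate 4 stood apart with 62.9 scaled TPM of Hyou1, 40.1 of Eif2ak3, 11.2 of Trib3 and 9.36 of Derl3, all high, and 1.71 of Dnajb9, which was low. That library had 14469 genes at 1 TPM or more, against 17436 to 18298 in the rest of its group. Replicate 3 was low for Sec61a1 (61.7) and replicate 1 high for Sec61b (49.2). At 1 day, cabergoline-treated replicate 5 was low for Dnajb9 (19.1).

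In nulliparous mice, replicate 1 was high for Dnajb9 (81.9 scaled TPM), Manf (75.6), Dnajc3 (32.3), Ssr1 (25.7) and Derl2 (23.4). Mitochondrial transcripts took 39.83% of its TPM, and their part in these values was not tested. Replicate 3 was high for Derl3 (9.8) and replicate 5 for Trib3 (5.08).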

How the results depend on the processing

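Scaling mattered most. On TPM as deposited, 22 of the 37 genes were called in cabergoline-treated mice at 60 days against 1 day, 20 higher and 2 lower, and 15 of the 23 called genes changed direction: Sec61b 0.29, Manf 0.24, Calr 0.48, Sdf2l1 0.54, Pdia3 0.56, Derl2 0.66, Canx 0.79, Pdia4 0.91, Hsp90b1 0.57, Dnajb11 0.64, P4hb 0.74, Pdia6 0.97, Dnajc3 1.04, Atf6 0.84 and Syvn1 0.89 (log2). In untreated mice at 60 days against 1 day, 28 genes were then called, and Manf (0.54), Dnajb11 (0.93) and Derl3 (0.50) turned positive. In untreated mice at 1 day against nulliparous mice, 32 were called and Dnajb11 was at -0.998. Quantile normalisation called 1 gene in untreated mice over time. Quality weights called 28 there and 27 in untreated mice at 1 day against nulliparous mice, and 1 fit of all 25 libraries called 5 and 4. The share of all genes called under each alternative is not given here. These counts are therefore no result about the 37 genes alone.

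The correlations over all groups do not justify a replicate block, although those between untreated mice at 1 day and nulliparous mice were all positive. With the block, 18 genes were called in cabergoline-treated mice over time and 0 in untreated mice at 1 day against nulliparous mice. It changed no other count of calls among the 37 genes. Of the 98 further genes of the secretory route it called 33 lower in cabergoline-treated mice over time, and 3 higher and 1 lower in untreated mice at 1 day against nulliparous mice. Leaving out 1 library gave 14 to 26 calls in cabergoline-treated mice over time, 0 to 2 in untreated mice over time and 0 to 5 in untreated mice at 1 day against nulliparous mice. Without untreated replicate 3 at 1 day and replicate 2 at 60 days together, a choice made after seeing the data, 9 were called in untreated mice over time. The other counts of calls were 0 under every alternative run. The cause of these shifts was not tested. TPM keeps no depth, so no counting error can be given for low genes such as Derl3 and Trib3.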
